A study of Mus musculus with 2 samples.

Results

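Cyp2f2, Cyp17a1, Cyp2a4 and Cyp3a13 are 4 of the 19465 genes counted on sections of mouse liver, and all 4 encode cytochrome P450 enzymes (CYPs). They were taken by gene symbol, and each symbol had 1 entry in the tables. Cyp17a1, Cyp2a4 and Cyp3a13 were chosen because the study names them as lower in a mid-lobular cluster of spots of its mutant mouse, a choice made on the same sections, and Cyp2f2 was added as a marker of hepatocytes near the portal vein. The ratio between the sections is therefore a description of how these genes were selected and supports nothing by itself. The gradient of Cyp17a1, Cyp2a4 and Cyp3a13 across the lobule did not enter the choice.

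The assay was 10x Visium for formalin-fixed tissue, which counts pairs of ligated probes by unique molecular identifiers (UMIs) on barcoded spots that each cover several cells. The tissue was cut at 5 μm, with a single section for AEG-1-WT, from 1 female, and a single section for AEG-1-C75S, from another. Both mice were naive 8-week-old littermates of a heterozygous cross, and the pieces came from the same lobe and were fixed alike. AEG-1-C75S mice carry a germline CRISPR knock-in of AEG-1 (gene Mtdh) in which the cysteine that is normally palmitoylated is replaced by serine, and AEG-1-WT littermates carry none. Each genotype was 1 animal without a replicate, and since spots of a section cannot stand in for animals, no p-value was computed and a ratio sets 1 library against another rather than 1 condition against another. Spots with at most 50000 UMIs were kept, 2309 of 2316 in AEG-1-WT with 42246988 UMIs, and 2163 of 2167 in AEG-1-C75S with 41674347 UMIs. The median spot had 16830 UMIs in AEG-1-WT against 18808 in AEG-1-C75S, but spots under 8000 UMIs made up 0.476% of the first section and 11.2% of the second. The sections had 1896 barcodes in common, which in this assay mark positions on the slide and not cells. The defining hepatocyte genes Alb, Apoa1, Ttr and Serpina1c summed to 170025 counts scaled to a total of 1000000 UMIs (CPM) in AEG-1-WT against 174329 CPM in AEG-1-C75S. Most of either sum was Alb, at 127352 and 120952 CPM, and the single genes did not move together. Apoa1 was at 21340.5 and 30253.2 CPM, Ttr at 18431 and 20982 CPM, and Serpina1c at 2901 and 2142 CPM.

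CYPs are membrane-bound monooxygenases of the endoplasmic reticulum, which take electrons from the reductase encoded by Por. Families CYP1 to CYP3 act mainly on drugs and other foreign compounds and also on steroids, and other families make steroid hormones and bile acids. In the liver lobule blood flows from the portal tract to the central vein, and most drug-metabolizing CYPs, among them Cyp2e1 and Cyp1a2, are known to be highest around the central vein. Cyp2f2, which oxidizes naphthalene, is a known exception with its highest level around the portal tract. Cyp17a1 is the steroid hydroxylase and lyase on the path to androgens, Cyp2a4 is a testosterone hydroxylase that is higher in livers of female mice, and Cyp3a13 is a member of the CYP3A subfamily, whose substrates include many drugs and steroids.

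On mm10 (GENCODE annotation), Cyp2f2 (ENSMUSG00000052974) lies on the plus strand of chromosome 7 from 27119909 to 27133660, and its main transcript has 10 exons. Cyp2a4 (ENSMUSG00000074254) lies on the same strand of chromosome 7 from 26307169 to 26315088 with 9 exons, 805 kb away in the same cluster of Cyp2 genes. Cyp17a1 (ENSMUSG00000003555) is on the minus strand of chromosome 19 from 46667165 to 46673172 with 8 exons, and Cyp3a13 (ENSMUSG00000029727) is on the minus strand of chromosome 5 from 137892932 to 137921619 with 13 exons.

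Cyp2a4 has a near-identical neighbour, Cyp2a5, which was not among the genes counted. Their main transcripts are identical at 1708 of 1738 aligned bases (98.3%), with a longest shared run of 216 bases, and 36.1% of the 50-base windows of the Cyp2a4 transcript occur letter for letter in that of Cyp2a5. No 50-base window of Cyp2f2, Cyp17a1 or Cyp3a13 occurs in a transcript of another gene. Over all other genes, the share of such windows for Cyp2a4 is 38.0%, in 2 genes of which Cyp2a5 holds the most. The counts listed as Cyp2a4 are therefore uncertain as to which of these genes they came from. The stretches just before the annotated transcripts (RefSeq, GRCm38.p6), at chr7:26307072-26307168 for Cyp2a4 and chr7:26835219-26835304 for Cyp2a5, both on the plus strand, are shown because this pair is a known target of the transcription factor DBP, whose own level is given further on. Capitals mark the letters TTGCATAA.
Cyp2a4: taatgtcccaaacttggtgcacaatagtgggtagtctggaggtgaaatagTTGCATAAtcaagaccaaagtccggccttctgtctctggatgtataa
Cyp2a5: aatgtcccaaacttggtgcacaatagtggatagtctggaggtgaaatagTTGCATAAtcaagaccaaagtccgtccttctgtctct
These stretches differ at 2 of 86 aligned bases, so the genes are alike before the start of transcription as well as in the transcript. The motif TTATGCAA, whose reverse complement is TTGCATAA, was searched on both strands and chosen after the sequence had been seen, and it was present in 0.792% of 27025 promoters of 300 bases (from 250 bases before the start to 50 after it), among them those of Cyp2a4 and Cyp2a5. TTATGTAA and TTACGTAA, the usual forms of the element bound by DBP and its relatives, and CAAAGTCCA, bound by HNF4A, were in 0.955%, 0.107% and 0.477% of promoters. The promoters of Cyp2f2, Cyp2a4, Cyp2a5 and Cyp3a13, the 4 found in the RefSeq table of 5 genes looked up, held none of these 3 letter for letter in that window. Near forms of the motifs were not searched, apart from TTATGCAA, which differs from TTATGTAA in a single letter. Both stretches above also hold caaagtccg, unmarked, which differs from CAAAGTCCA in its last letter only.

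Over the whole sections, Cyp2f2 was higher in AEG-1-C75S and the other genes were lower. Cyp2f2 had 54965 UMIs (1301 CPM) in AEG-1-WT and 65565 UMIs (1573 CPM) in AEG-1-C75S, a log2 ratio (AEG-1-C75S relative to AEG-1-WT) of 0.27 (95% interval 0.26 to 0.29). The interval is exact, from the binomial share of either sum in both, and, like every interval given here, covers counting error only. Cyp17a1 had 9534 UMIs (226 CPM) in AEG-1-WT and 6755 (162 CPM) in AEG-1-C75S, a log2 ratio of -0.48 (-0.52 to -0.43), or 28.2% lower. For Cyp2a4 there were 33469 UMIs (792 CPM) and 25985 UMIs (624 CPM), with a log2 ratio of -0.35 (-0.37 to -0.32), or 21.3% lower. Cyp3a13 had 12818 UMIs (303 CPM) and 9352 UMIs (224 CPM), with a log2 ratio of -0.44 (-0.47 to -0.40), or 26.0% lower. The CPM of a gene depends on its probes, so that levels can be compared between spots and sections for 1 gene, but not between genes.

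Among the 6887 genes for which both sections together held 1000 UMIs or more, the median log2 ratio was -0.04, and 14% of genes were lower and 7.32% higher by at least 0.25 on the log2 scale. By that fold 3 of the 4 genes were lower, as they were picked to be, and Cyp2f2 was higher. There were 225 genes with a lower ratio than Cyp17a1, 296 below Cyp3a13 and 532 below Cyp2a4, while 419 genes had a higher ratio than Cyp2f2. The shift of each gene was thus exceeded by that of many other genes. The study also names Cyp7a1 and Cyp1a2 as lower in its mid-lobular cluster, so they are not an independent comparison. Cyp7a1, the rate-limiting enzyme of bile acid synthesis, went from 185 to 67.5 CPM (log2 ratio -1.45, interval -1.51 to -1.39). Cyp1a2, a central enzyme that acts on caffeine and aromatic amines, went from 476 to 430 CPM (-0.15, -0.18 to -0.12).

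Nearly every spot carried these transcripts. A UMI of Cyp2f2 was present in 99.1% of AEG-1-WT spots and 99.5% of AEG-1-C75S spots, of Cyp2a4 in 99.9% and 99.4%, of Cyp3a13 in 99.0% and 94.8%, and of Cyp17a1 in 91.5% and 85.9%. After each spot had been thinned to 3000 UMIs, so that depth was equal, and 4 and 3 shallower spots had been left out, the shares for Cyp17a1 were 45.7% (95% exact binomial interval 43.7 to 47.8) and 37.6% (35.5 to 39.7). Those for Cyp3a13 were 59.5% (57.5 to 61.5) and 48.3% (46.2 to 50.5), those for Cyp2a4 88.3% and 82.3%, and those for Cyp2f2 90.9% and 94.3%. At equal depth, the shares ran in the same direction as the CPM for all 4 genes. Such a share follows largely from the CPM, so this adds no separate support. No group of spots free of hepatocytes was defined, so these shares have no background beside them.

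To place spots along the lobule, the spots of each section were ranked by the ratio of portal UMIs (Hal, Gls2 and Hsd17b13) to central UMIs (Oat), which uses none of the 4 genes, and cut into 5 quintiles and 10 deciles. Cyp2f2 had 2265, 1682, 1257, 762 and 538 CPM from the most portal to the most central quintile of AEG-1-WT, and 2562, 1988, 1553, 1046 and 714 CPM in AEG-1-C75S. Cyp17a1 had 383, 299, 207, 140 and 99.4 CPM in AEG-1-WT and 251, 210, 156, 115 and 77.1 CPM in AEG-1-C75S. Both genes were therefore highest in the most portal quintile and declined at every step to the most central one in each section. Cyp2a4 had 1058, 894, 784, 656 and 567 CPM in AEG-1-WT and 814, 741, 635, 509 and 414 CPM in AEG-1-C75S, a shallower decline in the same direction. Cyp3a13 stayed within 280 to 316 CPM in AEG-1-WT, and within 213 to 233 CPM in AEG-1-C75S, nearly flat across the lobule.

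**Figure D1:**
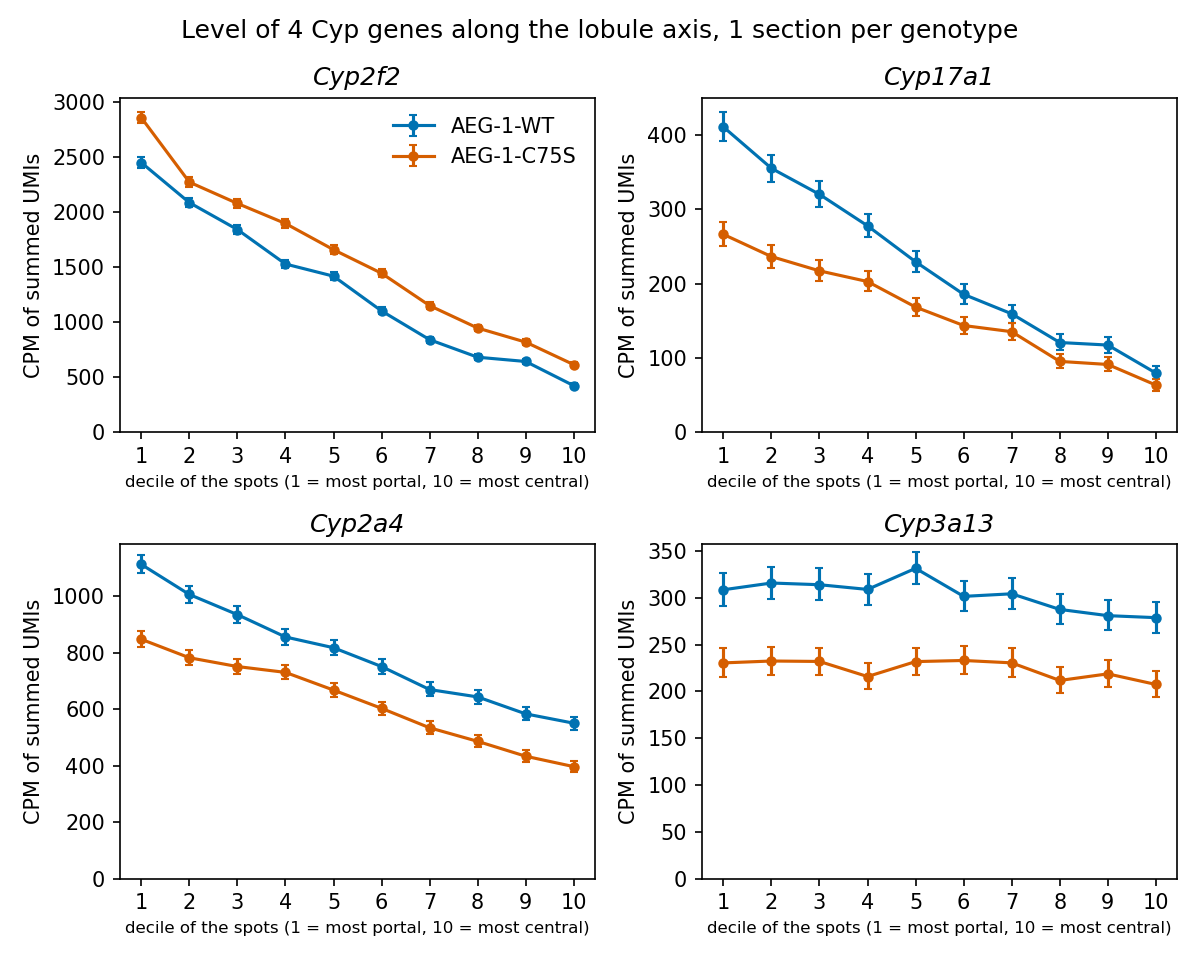
Level of each gene (y axis, CPM of UMIs summed over a decile of the spots, from 0) against the decile of the lobule axis (x axis, 1 most portal, 10 most central), with the AEG-1-WT section in blue, the AEG-1-C75S section in orange and bars for the 95% exact Poisson interval. Cyp2f2, Cyp17a1 and Cyp2a4 declined at each of 9 steps in both sections, Cyp3a13 at 6 and 5 of 9 steps, and the orange line lies above the blue one for Cyp2f2 and below it for the other genes.

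As log2 of the most portal over the most central quintile, the span of Cyp2f2 was 2.07 (2.03 to 2.12) in AEG-1-WT but 1.84 (1.80 to 1.89) in AEG-1-C75S, that is 4.21-fold and 3.59-fold. Cyp17a1 spanned 1.95 (1.83 to 2.06) and 1.71 (1.58 to 1.84), or 3.85-fold and 3.26-fold. Cyp2a4 spanned 0.90 (0.85 to 0.95) and 0.97 (0.92 to 1.03), and Cyp3a13 0.16 (0.08 to 0.24) and 0.12 (0.03 to 0.22). In order, Cyp2f2 and Cyp17a1 had the steepest portal gradients with overlapping counting intervals in either section, Cyp2a4 came next, and Cyp3a13 was last. A portal level at least 2-fold over the central level was rare, at 0.596% of 6883 genes with at least 1000 UMIs (without those of the axis) in AEG-1-WT against 0.552% in AEG-1-C75S, and Cyp2f2 and Cyp17a1 passed it in both sections while Cyp2a4, at 1.87-fold and 1.97-fold, did not. Only 8 genes in AEG-1-WT against 9 in AEG-1-C75S had a steeper portal gradient than Cyp17a1, compared with 5 and 7 for Cyp2f2, 54 and 40 for Cyp2a4, and 652 and 1019 for Cyp3a13. Cyp17a1 was thus about as portal as the established marker Cyp2f2 on this axis. The gap was wider after thinning each spot to 3000 UMIs. Cyp17a1 then spanned 1.46 against 1.79 for Cyp2f2 in AEG-1-WT, and 1.19 against 1.43 in AEG-1-C75S.

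The ratio between the sections was not the same in every quintile. For Cyp2f2 the log2 ratio was 0.18, 0.24, 0.30, 0.46 and 0.41 from the most portal to the most central quintile, so that it passed 0.25 in the 3 quintiles from the middle to the central vein. For Cyp17a1 it was -0.61, -0.51, -0.41, -0.29 and -0.37, largest in size at the portal end, where the gene is highest. For Cyp2a4 it was -0.38, -0.27, -0.30, -0.37 and -0.45, and for Cyp3a13 -0.43, -0.48, -0.44, -0.42 and -0.39. The study named Cyp17a1, Cyp2a4 and Cyp3a13 in a cluster of spots with mid-lobular and central markers, which is not the same set of spots as the middle quintile. Their shift was past 0.25 in size in all 5 quintiles without TMM factors and was thus not limited to the middle one. With TMM factors, though, 12 of these 15 values passed it, and Cyp2a4 at -0.22 in the portal-side and -0.246 in the middle quintile and Cyp17a1 at -0.23 in the central-side quintile fell short, as did Cyp3a13 at -0.21 in the middle quintile after thinning each spot to 3000 UMIs. Cyp2f2 was at 0.30 in the portal-side quintile with TMM factors, past the fold. The shares of all genes with at least 200 UMIs that were lower by at least 0.25 in these quintiles were 14.1%, 20%, 20.7%, 18.3% and 17.2%, and 14%, 9.51%, 9.15%, 9.7% and 9.97% were higher.

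**Figure D2:**
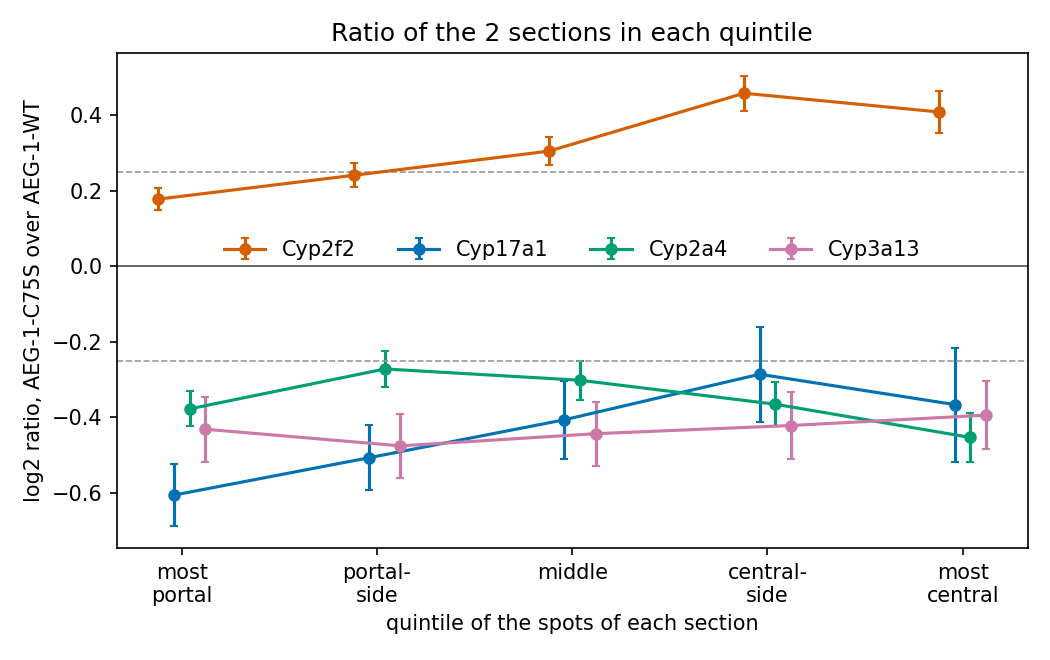
Log2 ratio, AEG-1-C75S relative to AEG-1-WT (y axis) in each quintile of the lobule axis (x axis) for Cyp2f2, Cyp17a1, Cyp2a4 and Cyp3a13, with bars for the 95% counting interval and dashed lines at 0.25 and -0.25. The Cyp2f2 points lie above 0 in all 5 quintiles and are highest in the central-side quintile at 0.46, and the points of the other 3 genes lie below -0.25, with Cyp17a1 lowest in the most portal quintile at -0.61.

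The ratio in the most portal quintile minus that in the most central quintile was -0.23 (95% counting interval -0.29 to -0.17) for Cyp2f2 and -0.24 (-0.41 to -0.07) for Cyp17a1, on the log2 scale. On this scale both portal genes therefore had a flatter gradient along this axis in the AEG-1-C75S section. Cyp2f2 had its larger log2 excess at the central end and Cyp17a1 its larger log2 deficit at the portal end. In CPM, with AEG-1-WT first, Cyp2f2 was at 2265 and 2562 in the most portal quintile and 538 and 714 in the most central. Its excess in CPM was thus larger at the portal end, and its fall in CPM along the axis was not smaller in AEG-1-C75S. The portal ratio minus the central one was 0.08 (-0.0028 to 0.15) for Cyp2a4 and -0.04 (-0.16 to 0.09) for Cyp3a13, both within counting error. The central genes Cyp1a2 and Cyp2e1 (the ethanol-oxidizing CYP) also spanned less in AEG-1-C75S, with log2 of portal over central at -2.07 against -2.28 for Cyp1a2 and at -2.07 against -2.27 for Cyp2e1, so a flatter gradient was not shown to be particular to Cyp2f2 and Cyp17a1. Spans also depend on how finely few UMIs rank the spots. Thinning each spot to 3000 UMIs shortened the span of Cyp2f2 from 2.07 to 1.79 in AEG-1-WT and from 1.84 to 1.43 in AEG-1-C75S. For Cyp17a1 it went from 1.95 to 1.46 and from 1.71 to 1.19. The portal ratio minus the central one was then -0.36 for Cyp2f2 and -0.27 for Cyp17a1. Without spots under 8000 UMIs it was -0.20 and -0.18. Of the axis genes, Gls2 and Oat were lower in AEG-1-C75S, and more of its spots were shallow. Whether spots were ranked less finely in that section was not tested.

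Counted against Cyp2f2 in the same spots, Cyp17a1 kept nearly the same proportion across the lobule. Per 100 UMIs of Cyp2f2 there were 16.9, 17.8, 16.5, 18.4 and 18.5 UMIs of Cyp17a1 from the most portal to the most central quintile of AEG-1-WT, and 9.81, 10.6, 10.1, 11.0 and 10.8 in AEG-1-C75S. The proportion differed between the sections by -0.71 to -0.78 on the log2 scale in every quintile, and by -0.75 over the whole sections. From the portal to the central end, Cyp2a4 went from 46.7 to 105 UMIs per 100 of Cyp2f2 in the AEG-1-WT section (31.8 to 58.0 in the AEG-1-C75S section) and Cyp3a13 from 13.8 to 52.1 (9.04 to 29.8). The total of a section and its scaling cancel in these proportions. Their size reflects the probes as well as the RNA.

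**Figure D3:**
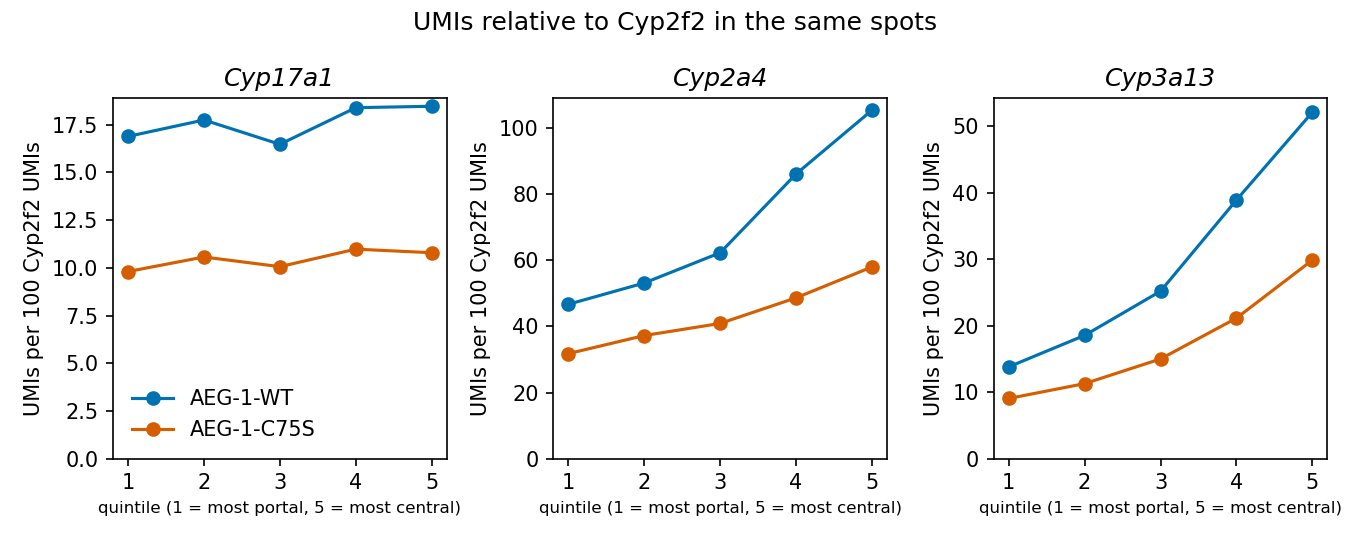
UMIs of Cyp17a1, Cyp2a4 and Cyp3a13 per 100 UMIs of Cyp2f2 (y axes, from 0) in each quintile of the lobule axis (x axes, 1 most portal, 5 most central) in the AEG-1-WT section (blue) and the AEG-1-C75S section (orange). Cyp17a1 is nearly level, within 16.5 to 18.5 on the blue line and within 9.81 to 11.0 on the orange one, while Cyp2a4 and Cyp3a13 climb towards the central vein.

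Single spots ranged widely. From the 10th to the 90th percentile of spots, Cyp2f2 ran from 379 to 2398 CPM in AEG-1-WT (in AEG-1-C75S, it ran from 576 to 2682 CPM) and Cyp17a1 from 45.7 to 477 CPM (0 to 333 CPM). Cyp2a4 ran from 425 to 1212 CPM (290 to 969 CPM) and Cyp3a13 from 138 to 490 CPM (85.7 to 376 CPM). Within a quintile, the variance of Cyp2f2 counts was 3.02 times that of Poisson counting in AEG-1-WT, or 3.39 times in AEG-1-C75S, so spots of 1 quintile still differed in Cyp2f2. The factor was 1.44 and 1.26 for Cyp17a1, 1.35 and 1.33 for Cyp2a4, and 1.05 and 1.03 for Cyp3a13, but it grows with the UMIs per spot and so does not rank the genes. As a description over spots, which share a library and depth, the rank correlation of CPM between Cyp2f2 and Cyp17a1 was 0.67 in AEG-1-WT (2309 spots) and 0.56 in AEG-1-C75S (2163 spots), and its mean within quintiles was 0.34 and 0.32. For Cyp2f2 and Cyp2a4 it was 0.59 and 0.55, for Cyp17a1 and Cyp2a4 0.48 and 0.37, and for Cyp3a13 with each of the others under 0.1.

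The genes whose pattern was most like that of each of the 4 were taken by Pearson correlation of log2 CPM over 20 groups of spots, the 10 deciles of each section, which share libraries. For Cyp2f2 the closest was Etnppl, a phospholyase of phosphoethanolamine, with r of 0.996, followed by Ctsc, Amdhd1, Ambp and Pigr (0.97 to 0.98). Etnppl went from 108 to 125 CPM and spanned 2.19 and 1.86 from portal to central on the log2 scale, which is close to Cyp2f2 in both respects. For Cyp17a1 the closest were Acly (0.983), which makes cytosolic acetyl-CoA, and Sfxn1, Hpx and Alb, and for Cyp2a4 they were Acly (0.987), Uox, Atp1b1, Sds and Gas2. Acly headed both lists, at 212 CPM in AEG-1-WT against 168 CPM in AEG-1-C75S and with portal spans of 1.09 and 0.94. For Cyp3a13 the closest were Mt1 (0.980), Mt2, Serpina1e, Tat and Serpina1c. These 5 genes had log2 ratios from -0.44 to -3.44 between the sections and portal spans of 0.21 to 0.91, so the likeness to Cyp3a13 came mostly from the step between the sections. Among the 4 genes themselves the highest correlation was that of Cyp17a1 with Cyp2a4 (0.967), and the lowest that of Cyp2f2 with Cyp3a13 (0.02). This order includes the step between the sections, by which Cyp17a1, Cyp2a4 and Cyp3a13 were chosen. Over the spots of either section alone, the correlation given above was highest for Cyp2f2 with Cyp17a1. In AEG-1-C75S it was barely so, at 0.56 against 0.55 for Cyp2f2 with Cyp2a4. Few UMIs per spot lower such correlations, so they do not rank the pairs by likeness.

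Of 41 measured genes of families CYP1 to CYP3, 22 held 1000 UMIs or more in both sections together. By the same fold 4 were higher, 4 were lower and 14 lay between, with a median log2 ratio of -0.02, beside 14% of all genes lower, 7.32% higher and a median of -0.04. The higher ones were Cyp3a44 (106 and 167 CPM, 0.65), Cyp2j9 (14.3 and 20.7 CPM, 0.53), Cyp3a11 (2806 and 3805 CPM, 0.44) and Cyp2f2. Cyp3a11 is the main mouse CYP3A enzyme of drug metabolism. The lower ones were Cyp2b13 (117 and 51.6 CPM, -1.18), Cyp2c69 (718 and 508 CPM, -0.50), Cyp3a13 and Cyp2a4. Cyp3a13 and Cyp2a4 were chosen as lower on these same sections, and Cyp1a2 of this list was named with them. The count of lower genes and the median are therefore not independent of that choice. Within subfamily CYP3A, Cyp3a13 was therefore lower while Cyp3a11 and Cyp3a44 were higher and Cyp3a59 was at -0.06, and Cyp3a16 and Cyp3a57 had at most 4 UMIs in a section. Cyp2a4 and Cyp2f2 were the members of subfamilies CYP2A and CYP2F among the 41. Of the 22 genes, Cyp2f2 alone was at least 2-fold portal in both sections, 3 (Cyp1a2, Cyp2e1 and Cyp2c69) were at least 2-fold central in both, and 18 were neither in both.

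**Figure D4:**
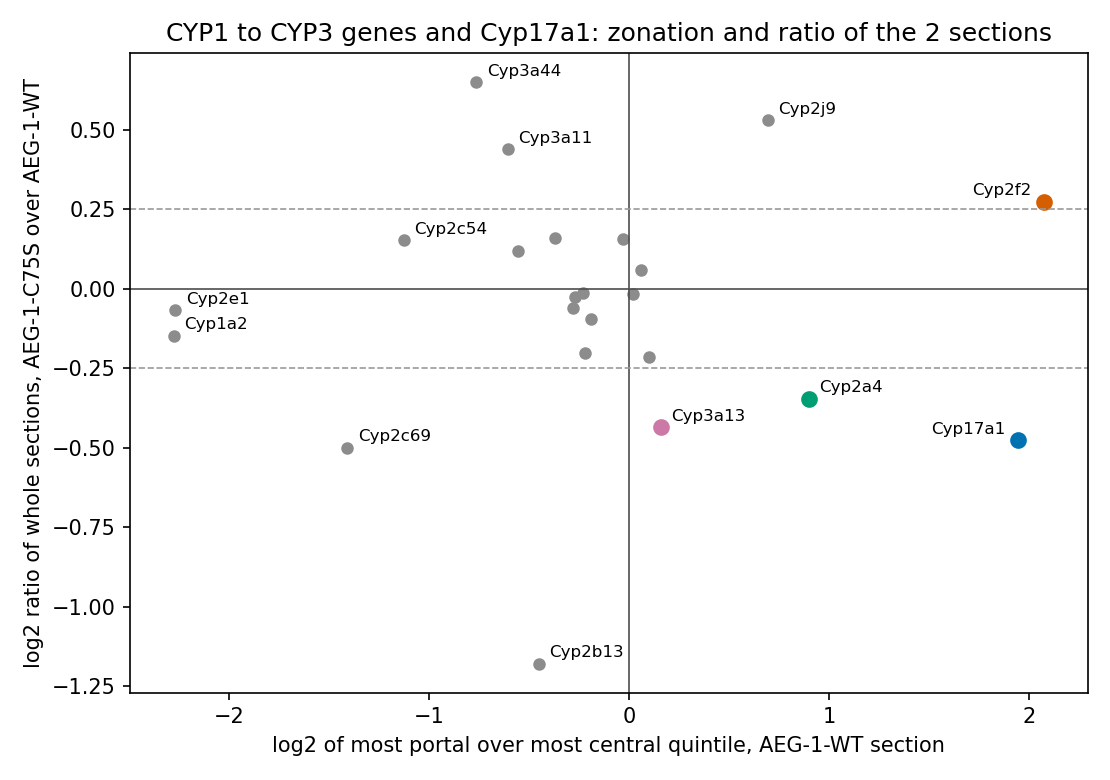
Each point is 1 of the 22 CYP1 to CYP3 genes with at least 1000 UMIs, or Cyp17a1, with log2 of the most portal over the most central quintile in AEG-1-WT on the x axis, log2 of AEG-1-C75S relative to AEG-1-WT over the whole sections on the y axis, and dashed lines at 0.25 and -0.25. Cyp2f2 and Cyp17a1 stand together at the portal end, at 2.07 and 1.95, on opposite sides of 0, and Cyp2b13 is lowest at -1.18.

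Of 13 partners and regulators of CYPs, 2 were lower, 1 was higher and 10 were within the fold, beside 14% of all genes lower and 7.32% higher, and the median was -0.10 against -0.04 over all genes. These counts are near the shares over all genes. Por was at 476 CPM in AEG-1-WT against 389 CPM in AEG-1-C75S (log2 ratio -0.29), and Ahr, the receptor of aromatic ligands that drives Cyp1a genes, at 43.8 and 34.1 CPM (-0.36). Nr0b2, the corepressor SHP, was at 40.7 and 83.1 CPM (1.03). The genes within the fold were Cyb5a (-0.18) and Cyb5r3 (-0.03) of the cytochrome b5 chain, Nr1i3 (-0.24) and Nr1i2 (-0.07), the xenobiotic receptors CAR and PXR, Rxra (-0.18), their dimer partner, and Arnt (0.04), Hnf4a (0.08), Nr1h4 (-0.04), Ppara (-0.10) and Nr3c1 (-0.10).

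The PAR bZIP factors, a family under clock control that is known to act on Cyp2a4 and Cyp2a5, were all lower in the AEG-1-C75S section. Of all genes, 14% were lower and 7.32% higher by the fold used here. Dbp was at 223 CPM in AEG-1-WT against 76.9 CPM in AEG-1-C75S (log2 ratio -1.54, interval -1.59 to -1.48), Tef at 111 and 47.1 CPM (-1.23), and Hlf at 62.5 and 46.1 CPM (-0.44). Nfil3, which binds the same element as a repressor, was at 10.2 and 12.7 CPM (0.32), on 429 and 528 UMIs. These genes oscillate over the day. Their part in the level of Cyp2a4 was not tested, and neither was that of the hour of tissue collection, which is not given in the sources used here.

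Genes known to be higher in female than in male mouse liver shifted in both directions. Of those reported here, all with at least 1000 UMIs, 6 were lower, namely A1bg (865 and 298 CPM, -1.54), Cyp2b13 (-1.18), Acot3 (-0.81), Hao2 (-0.77), Cux2 (-0.51) and Cyp2a4, and 1 was higher, Cyp3a44. Cyp2a4 was chosen as lower on these sections, so it adds nothing to that count. Of 7 measured male-predominant genes, 4 had at least 1000 UMIs, and the others had too few to be counted. Of these 4, 3 were lower (Mup20 at -0.59, Nudt7 at -0.39 and Cyp7b1 at -0.26), Slco1a1 was at -0.16, and none was higher. Over all genes, 14% were lower and 7.32% higher by this fold.

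The genes that the study used to mark the portal zone did not share a direction. Of 7 such genes, 6 had at least 1000 UMIs, with a median log2 ratio of -0.24 (-0.04 over all genes). Of these 6, 3 were lower and 1 was higher, Cyp2f2, beside 14% of all genes lower and 7.32% higher. Lower were Gls2 (glutaminase, 403 and 255 CPM, -0.66), Arg1 (arginase, 1763 and 1268 CPM, -0.48) and Pck1 (the gluconeogenic carboxykinase, 1933 and 1564 CPM, -0.31), while Hal (histidine ammonia-lyase) was at -0.18 and Hsd17b13 (a lipid droplet protein) at -0.04. Hal, Gls2 and Hsd17b13 set the axis through their summed UMIs over those of Oat, and only the rank of that ratio within a section was used. The level of each gene in a section thus set its weight in the sum.

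Markers of other cells also differed between the sections. The 5 Kupffer cell markers summed to 866 CPM in AEG-1-WT against 1159 CPM in AEG-1-C75S (log2 ratio 0.42), the 4 stellate cell markers to 551 and 703 CPM (0.35), and the 3 endothelial markers to 310 and 327 CPM. Single markers differed in size. Of the Kupffer markers, Marco was at 1.62, Clec4f at 0.10 and Fabp5, Cd5l and Vsig4 at 0.42 to 0.46. Of the stellate markers, Colec11 was at 0.07 and Reln, Dcn and Ecm1 at 0.35 to 0.42. The 2 cholangiocyte markers summed to 114 and 84.9 CPM (-0.43), the 3 connective tissue markers, among them Col1a1, to 67.9 and 23.6 CPM (-1.53), and 3 red blood cell genes to 611 and 404 CPM (-0.59). No marker of these lists was at 0. Cyp2f2 and Cyp17a1 are highest in the most portal quintile, but the cholangiocyte and connective tissue markers peaked in the portal-side quintile of both sections. In AEG-1-WT, the connective tissue markers were at 65.8, 98.5 and 86.9 CPM from the most portal to the middle quintile. In the middle quintile they were at 21.1 CPM in AEG-1-C75S, a log2 ratio of -2.04. Without the 10% of spots with the largest share of both marker sets in each section, Cyp2f2 and Cyp17a1 had log2 ratios of 0.31 and -0.43. A difference in RNA per hepatocyte and one in hepatocytes per spot cannot be told apart in the CPM of a single gene. In the proportion of Cyp17a1 to Cyp2f2 given above, the number of hepatocytes cancels as far as both genes come from hepatocytes. That proportion also holds the choice of Cyp17a1 as lower and the rise of Cyp2f2, and the part of hepatocyte number was not tested. The 7 and 4 spots above 50000 UMIs had been left out. In them, Cyp2f2 was at 1811 and 2016 CPM and Cyp17a1 at 277 and 202 CPM. Cyp2a4 was nearly level there, at 867 and 852 CPM, and Cyp3a13 was at 315 and 142 CPM. The order was that of the kept spots for each gene, but the counting intervals of the sections overlapped for all but Cyp3a13. Without spots under 8000 UMIs, no whole-section log2 ratio of the 4 genes moved beyond its counting interval.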

How the data were processed

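Liver sections of 1 AEG-1-WT and 1 AEG-1-C75S mouse were measured with 10x Visium probes. Space Ranger 2.0.1 and mm10 were used by the authors for the deposited counts, which are raw UMI counts of 19465 genes under tissue, without normalization (0 columns of other samples). The 4 genes, the gene lists and the axis were chosen with earlier results of these data known.

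UMIs were summed over kept spots and divided by their total (CPM), with python 3.11.15, numpy 2.4.6, scipy 1.17.1 and pandas 2.3.3. Intervals are exact Poisson or binomial (Clopper-Pearson) at 95%. The axis was (Hal + Gls2 + Hsd17b13 + 1) / (Oat + 1), ranked within a section. A gene was counted as higher or lower at a log2 ratio of at least 0.25 in size, with at least 1000 UMIs over both sections or 200 in a quintile, and as portal at 2-fold. Besides the 4 genes, the text names Cyp7a1, Cyp1a2, CYP2A, CYP2F and CYP3A genes, the partner and PAR bZIP lists, the 3 largest rises and falls of the CYP1 to CYP3 list, and 5 genes most alike to each; genes of the sex-dependent and portal lists and Cyp2e1 were named after their values had been seen. Alternatives were no spot filter, equal weight per spot, TMM factors (edgeR 4.0.16), totals that leave out the 20 most abundant genes, spots matched on UMIs in 10 bins, other axes, tertiles, thinning to 3000 UMIs, and leaving out tract-rich or shallow spots. Sums and intervals were tested on simulated Poisson counts, so spread between spots beyond counting was not part of that test. Of the genes so named, 1 of those most alike and 1 of the female-predominant list are not reported here. Spot coordinates were not used here.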

Additional observations from a re-analysis of the deposited data

How the results depend on the processing

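No direction changed. Of 116 values of 16 results (the whole-section and middle-quintile log2 ratios and the portal-to-central spans of the 4 genes) under alternatives, 81 stayed inside the counting interval and 35 did not. Whole-section log2 ratios of Cyp2f2, Cyp2a4 and Cyp3a13 were 0.32, -0.30 and -0.39 with totals that leave out the 20 most abundant genes, and those of Cyp2f2, Cyp17a1, Cyp2a4 and Cyp3a13 were 0.33, -0.42, -0.29 and -0.38 with TMM factors. Without tract-rich spots, they were 0.31 for Cyp2f2 and -0.43 for Cyp17a1. In the middle quintile, Cyp2f2 was at 0.36 with TMM factors, 0.26 with spots ranked over both sections together and 0.38 without tract-rich spots, and Cyp2a4, at -0.246 with TMM factors, no longer passed the fold. After thinning, which was added for this quintile after the data had been seen, Cyp17a1, Cyp2a4 and Cyp3a13 were at -0.59, -0.47 and -0.21, so Cyp3a13 no longer passed it. With Cyp2e1 and Cyp1a2 added to the central side of the axis, the span was, in AEG-1-WT first, 2.30 and 1.97 for Cyp2f2 and 2.17 and 1.95 for Cyp17a1. With tertiles it was 1.77 and 1.51 for Cyp2f2, 1.67 and 1.43 for Cyp17a1, and 0.74 and 0.83 for Cyp2a4, since wider bins average over more of the axis. After thinning it was 1.79 and 1.43 for Cyp2f2, 1.46 and 1.19 for Cyp17a1, 0.79 and 0.83 for Cyp2a4, and 0.29 and 0.017 for Cyp3a13. Without Hsd17b13 the span of Cyp2f2 in AEG-1-C75S was 1.78. The cause of the other moves was not tested. The difference in ratio between the portal and the central quintile, tried on 7 alternatives added later, ran from -0.36 to -0.19 for Cyp2f2 and from -0.33 to -0.17 for Cyp17a1. Leaving out shallow spots and using TMM factors in quintiles other than the middle one were also chosen after seeing the data. No paired analysis was possible because each genotype had 1 section.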
